A study of Mus musculus with 12 samples.

Results

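The 10 genes described here, out of 36186 in the deposited table of expected counts from E18.5 mouse kidneys, are nuclear long noncoding RNAs and genes of splicing or intron retention. The noncoding ones are Neat1, Malat1, Miat and Kcnq1ot1, and the protein-coding ones Clk1, Clk4, Luc7l3, Pnisr, Ccnl2 and Ogt. Members were found by gene symbol, and 9 of the 10 matched. Pnisr carries no row of that name and was found under its older symbol Sfrs18 (Entrez 66625). The list was drawn up from the levels of these genes in these same libraries, so every difference of a member between genotypes is given as a description, without a test.

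Long noncoding RNAs of this kind stay in the nucleus. Neat1 is the scaffold of paraspeckles, Malat1 collects in nuclear speckles, Miat lies in nuclear bodies of its own, and Kcnq1ot1 coats the imprinted domain from which it is transcribed. Many protein-coding genes keep part of their transcripts in the nucleus in another way, as polyadenylated RNA that still holds an intron. Clk1 and Clk4, which phosphorylate the SR proteins of the spliceosome, and Ogt, the enzyme that adds O-linked N-acetylglucosamine to nuclear and cytosolic proteins, are known for such introns, and release or splicing of the stored RNA adjusts the amount of protein. The tissue is the developing kidney, in which nephron progenitors of the cap mesenchyme surround branching ureteric bud tips.

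RNA from whole kidneys of mixed background (129/CD1) embryos was sequenced in 12 libraries, 3 for each of 4 genotypes. The groups were wild type, Hoxa9,10,11-/- Hoxc9,10,11+/- (here Hoxa-/- Hoxc+/-), Hoxa9,10,11+/- Hoxc9,10,11-/- (here Hoxa+/- Hoxc-/-), and the double homozygous mutants, labelled as null for both sets of genes. The study's own text describes its sequenced double mutants as keeping at least 1 wild type allele of Hoxa11, and the labels do not tell which library carries which. It also reports that embryos null for both sets had no detectable kidneys at E18.5. The name double homozygous is therefore kept here only as that of the labels. All alleles are germline frameshifts, so the RNA of the targeted genes does not check the labels. The 3 Hoxa+/- Hoxc-/- libraries came from 1 sequencing run and the other 9 from another, so run and genotype cannot be told apart for that group. The numbers in library names are those of the labels. The study counts 3 controls and 3 mutants, and the sources used here give no number of embryos for the other 2 groups. The p-values set a difference between groups against the spread between these libraries.

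Libraries held 2.86e+07 to 4.71e+07 counts on genes. Kidney markers were present in all 12, from Six2 in nephron progenitors (13.2 to 164 CPM, counts scaled to a common library total) to Umod in the thick ascending limb (140.0 to 481 CPM). By Xist and Y-linked RNA, the 3 wild type libraries, Hoxa-/- Hoxc+/- 20, Hoxa+/- Hoxc-/- AhCk_38 and AhCk_115 and double homozygous 24 are male, and the other 5 are female. Library Hoxa-/- Hoxc+/- 20 stood apart: across genes its log2 CPM correlated at 0.940 and 0.935 with those of its group, against 0.977 to 0.988 for all other pairs within groups. It was also the shallowest, and the comparisons of its group are given without it as well. In whole kidneys, fewer cells of a type and less RNA per cell cannot be told apart.

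Clk1 and Clk4 show what an intron-retaining gene looks like, and the stretch that carries their retained introns is therefore printed first. In GENCODE release 21 (mm10), 7 of 13 transcripts of Clk1 and 7 of 14 of Clk4 are classed as retained introns. In both genes, a pair of neighbouring introns that some such transcripts keep flanks an exon of 91 bases. Each intron of the pair is spanned whole by 2 such transcripts in Clk1 and by 1 in Clk4. The exon lies at chr1:58420121-58420211 (minus strand) in Clk1 and chr11:51273078-51273168 (plus strand) in Clk4. Its length is not a multiple of 3, so leaving it out shifts the reading frame. The capitals mark the 6 positions at which the 2 exons differ, and 85 of 91 bases (93.4%) are the same.
Clk1 exon: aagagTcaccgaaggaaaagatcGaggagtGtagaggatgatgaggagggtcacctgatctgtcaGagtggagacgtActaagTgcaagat
Clk4 exon: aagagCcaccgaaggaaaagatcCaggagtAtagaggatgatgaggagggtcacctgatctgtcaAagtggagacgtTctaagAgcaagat

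The retained introns on either side of this exon measure 871 and 387 bases in Clk1, and 1055 and 391 bases in Clk4. Their 5′ splice sites are shown next, with the last 3 bases of the exon, the GT that opens the intron in capitals and the 4 bases that follow. These sites read gtatga and gtatag, whereas the other retained introns of both kinases open with gtaagt.
Clk1 upstream intron: gggGTatga
Clk4 upstream intron: tcgGTatga
Clk1 downstream intron: gatGTatag
Clk4 downstream intron: gatGTatag
Clk1 intron of 87 bases: tttGTaagt
Clk4 intron of 191 bases: attGTaagt
Clk4 intron of 253 bases: atgGTaagt

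Retained introns were also annotated in Ccnl2 (3 of 5 transcripts), Ogt (3 of 7) and Luc7l3 (2 of 10), and in none of the 13 transcripts of Pnisr or of the 4 noncoding RNAs. For Clk1, Clk4, Ccnl2 and Ogt the annotation holds 9 introns that such a transcript spans whole, all with GT and AG at their ends. In Ogt it is an intron of 107 bases near the start of the gene (chrX:101640111-101640217). For comparison, 53.3% of the 15701 annotated genes tested have at least 1 retained-intron transcript, and 6.29% have 5 or more. The deposited values are sums per gene, so spliced and intron-retaining RNA of a gene were not measured separately.

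Double homozygous mutant kidneys held the lowest mean level of all 10 members. For 9 of them, Miat being the exception, each of the 3 double homozygous libraries lay below each of the other 9 libraries. Among the 16260 genes that passed a low-count filter over the 12 libraries, 1153 (7.09%) lay that way. Against wild type, the log2 fold changes of these 9 ran from -2.35 to -0.63 with a median of -1.26, while the median of all 15839 genes tested was -0.01. With Miat, whose mutant level lies under the floor of 3 counts, the median of the 10 was -1.28, both as fitted and with Miat set at that floor. All 10 members passed the threshold in this comparison, where 13.7% of all genes tested passed it (7.40% lower and 6.31% higher), and none overlapped between the groups, as did not 38.1% of all genes (20.8% lower). Without wild type 37 or 55, 8 of 10 members passed, and the genes called fell in number from 2171 to 535 and 633. Because the members were chosen on these levels, nothing is read from those counts. An unadjusted p under 0.05 was found for 32.4% of all genes. Six2, the nephron progenitor marker, did not overlap either, at 67.2 to 105 CPM in wild type and 13.2 to 58.4 CPM in double homozygous mutants (log2 fold change -1.37, SE 0.46, edgeR adjusted p = 0.0868), and its part in the members' levels was not tested.

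**Figure D1:**
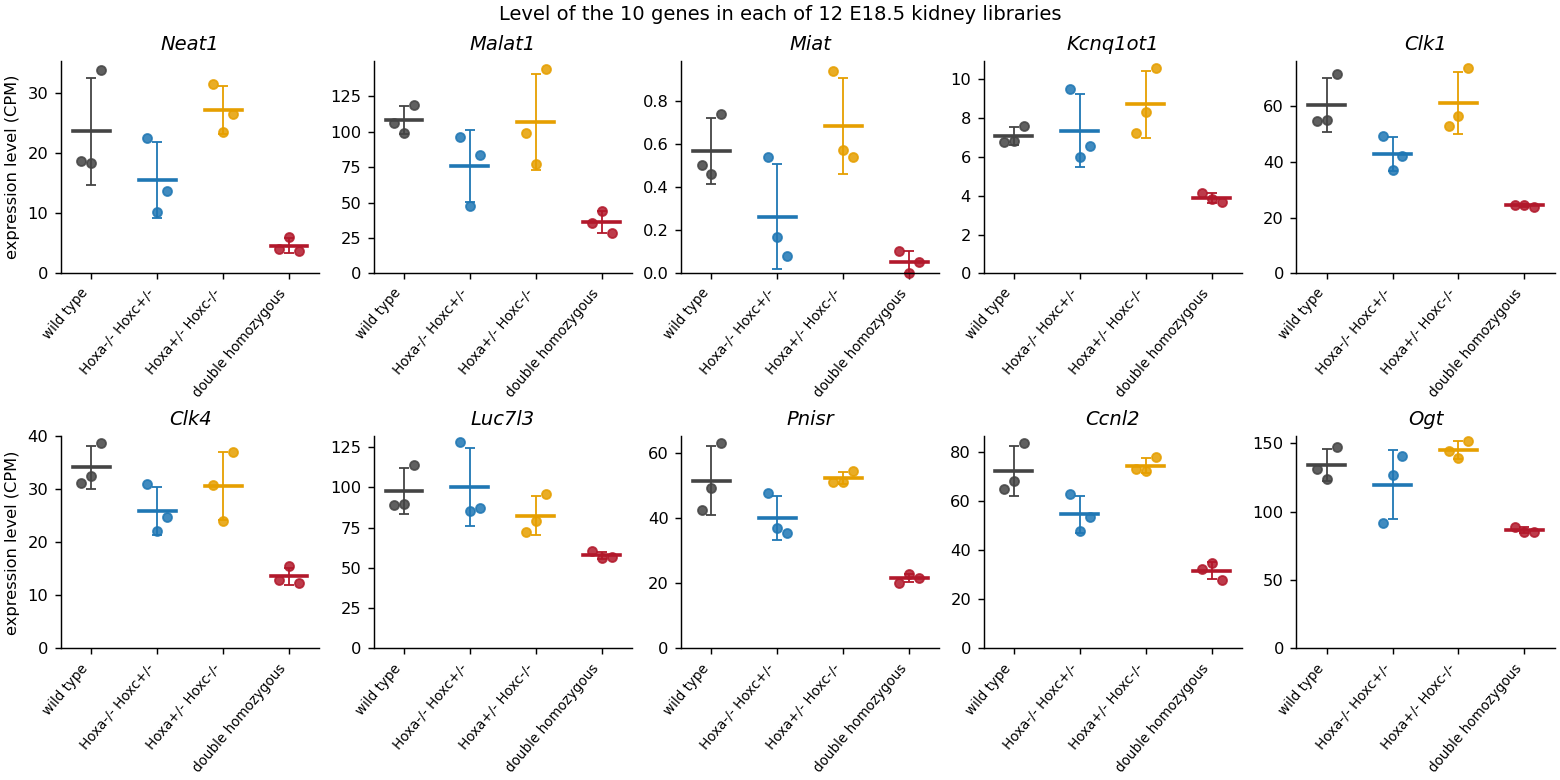
Level of each of the 10 genes in CPM (linear axes from 0) in 12 libraries; points are libraries, horizontal bars are genotype means and error bars are SD (n = 3). The double homozygous mutants have the lowest mean in every panel, and their points lie below all others except for Miat.

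Of the 4 noncoding RNAs, Neat1 had the lowest ratio to wild type after Miat. Neat1 (chr19:5824708-5845478, minus strand) measured 18.7, 18.4 and 33.9 CPM in wild type libraries 30, 37 and 55, and 4.05, 6.06 and 3.79 CPM in double homozygous libraries 24, 27 and 29. The 2 groups did not overlap, and the wild type mean of 23.7 ± 8.84 CPM (SD, n = 3) was 5.11-fold that of the mutants. In Hoxa-/- Hoxc+/- kidneys Neat1 stood at 22.6, 10.3 and 13.8 CPM in libraries 20, 31 and 33, so that 2 libraries lay below all of wild type and library 20 lay among them. Hoxa+/- Hoxc-/- kidneys held 31.6, 23.6 and 26.6 CPM in libraries AhCk_38, AhCk_110 and AhCk_115, all inside the wild type range. The log2 fold change in double homozygous mutants was -2.35 with a standard error of 0.29 in edgeR's fit.

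Malat1 (chr19:5795690-5802672, minus strand) lies beside Neat1 and was the most abundant of the noncoding members. Its levels were 106, 99.3 and 119 CPM in wild type and 35.9, 44.2 and 28.6 CPM in double homozygous mutants. Mutants thus held 0.335 of the wild type mean, with a log2 fold change of -1.58 (SE 0.16). In Hoxa-/- Hoxc+/- kidneys all 3 libraries, at 96.6, 47.7 and 83.8 CPM, were below the lowest wild type library. The lowest of them, library 31, lay just above the highest double homozygous library. Hoxa+/- Hoxc-/- libraries spread widely, at 98.8, 77.5 and 144 CPM, and lay on both sides of wild type.

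Kcnq1ot1 (chr7:143203458-143296549, minus strand) is transcribed as 1 exon of 93.1 kb across the Kcnq1 gene on the other strand. Wild type libraries held 6.74, 6.83 and 7.60 CPM and double homozygous libraries 4.15, 3.85 and 3.65 CPM, a log2 fold change of -0.86 (SE 0.14). The level was 9.50, 5.98 and 6.57 CPM in Hoxa-/- Hoxc+/- and 7.22, 8.31 and 10.6 CPM in Hoxa+/- Hoxc-/- kidneys, and both groups overlapped wild type. Whether counting used the strand is not stated, so reads of Kcnq1 introns and Kcnq1ot1 cannot be told apart. Kcnq1 itself measured 17.5 CPM in wild type and 20.5 CPM in double homozygous mutants (log2 fold change 0.22, SE 0.15, edgeR adjusted p = 0.341).

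Miat (chr5:112213228-112229395, minus strand) was near the limit of detection and passed the low-count filter only through its wild type reads. It had 19, 20 and 30 counts in wild type libraries 30, 37 and 55 and at most 4 in the double homozygous libraries, of which library 27 had 0. A count of 0 in that library allows up to 0.0747 CPM (3 counts of its total, counting error only), and the mean of the 3 mutant libraries, 0.0531 CPM, lies under this floor. Hoxa-/- Hoxc+/- libraries 20, 31 and 33 held 0.54, 0.17 and 0.08 CPM, and the last of these lay below the highest double homozygous library. Hoxa+/- Hoxc-/- libraries held 26.1 to 32 counts, close to wild type.

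The kinase pair came next in size of change. Clk1 (chr1:58410189-58424066, minus strand) measured 54.7, 54.9 and 71.6 CPM in wild type and 24.7, 24.6 and 23.8 CPM in double homozygous mutants, whose libraries differed by less than 1 CPM. Wild type kidneys held 2.48-fold the mutant mean, with a log2 fold change of -1.31 (SE 0.12). Hoxa-/- Hoxc+/- libraries, at 49.2, 37.04 and 42.1 CPM, filled the gap between the 2 groups without overlapping either. In Hoxa+/- Hoxc-/- kidneys Clk1 stood at 52.8, 56.5 and 73.7 CPM, like wild type.

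Clk4 (chr11:51261730-51281766, plus strand) went with Clk1. It was at 31.2, 32.4 and 38.7 CPM in wild type and 12.9, 15.5 and 12.4 CPM in double homozygous mutants (log2 fold change -1.33, SE 0.13). Levels of 30.97, 22.2 and 24.8 CPM in Hoxa-/- Hoxc+/- kidneys were below every wild type library, library 20 only barely. Hoxa+/- Hoxc-/- kidneys held 30.8, 24.02 and 36.99 CPM. The highest double homozygous level of Clk4, 15.5 CPM, compares with 22.2 CPM in the lowest of the other 9 libraries.

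Ccnl2 (chr4:155812489-155824543, plus strand) encodes cyclin L2, a partner of the CDK11 kinases in nuclear speckles. It measured 64.8, 68.0 and 83.5 CPM in wild type and 32.3, 34.7 and 27.998 CPM in double homozygous mutants, a log2 fold change of -1.19 (SE 0.12). As for Clk1, Hoxa-/- Hoxc+/- kidneys lay between, at 62.6, 47.6 and 53.6 CPM. For Ccnl2, as for Malat1, Clk1 and Clk4, Hoxa-/- Hoxc+/- and wild type kidneys did not overlap. Levels in Hoxa+/- Hoxc-/- libraries sat within wild type at 72.9, 72.0 and 77.9 CPM.

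Pnisr (chr4:21847583-21876475, plus strand) encodes a serine/arginine-rich partner of pinin, a speckle protein. Its wild type levels were 42.5, 49.2 and 63.1 CPM and its double homozygous levels 20.2, 22.8 and 21.8 CPM, so that wild type held 2.39-fold the mutant mean (log2 fold change -1.26, SE 0.15). Hoxa-/- Hoxc+/- libraries held 47.8, 37.1 and 35.5 CPM and Hoxa+/- Hoxc-/- libraries 51.2, 51.2 and 54.4 CPM. Library Hoxa-/- Hoxc+/- 20 again overlapped wild type while its 2 group mates lay below.

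Luc7l3 (chr11:94287890-94321988, minus strand) encodes an arginine/serine-rich relative of a yeast U1 snRNP protein. It stood at 89.2, 89.6 and 114 CPM in wild type and 60.5, 56.2 and 56.7 CPM in double homozygous mutants (log2 fold change -0.76, SE 0.11). It was the only member with its highest genotype mean in Hoxa-/- Hoxc+/- kidneys, at 128, 85.3 and 87.0 CPM, a mean that library 20 set: the other 2 libraries lay below all of wild type. The Hoxa+/- Hoxc-/- libraries held 72.3, 79.4 and 95.7 CPM.

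Ogt (chrX:101640060-101684351, plus strand) was the most abundant member per length and changed least. Wild type libraries held 131, 124 and 147 CPM and double homozygous libraries 88.9, 85.5 and 85.3 CPM, a log2 fold change of -0.63 (SE 0.08). In Hoxa-/- Hoxc+/- kidneys Ogt was at 91.6, 127 and 141 CPM, where library 20 is the lowest and lies just above the highest double homozygous library. Hoxa+/- Hoxc-/- libraries held 145, 139 and 152 CPM and overlapped wild type. The gene is X-linked, and library 20 is the male of its group. Double homozygous 24, also male, had the highest Ogt level of its own group.

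Per kilobase of annotated exon, wild type levels ranged from 16.7 CPM for Ogt, 15.5 for Malat1, 13.7 for Ccnl2 and 13.4 for Luc7l3 through 7.43 for Clk1, 5.88 for Clk4 and 5.07 for Pnisr down to 1.14 for Neat1. Kcnq1ot1 and Miat had 0.0758 and 0.0612 CPM per kilobase. All 10 members have a longer exon length than the median tested gene (4280 bases), and 9 of 10, all but Miat, have a GC content below the median of 49.9%. In a fit corrected for GC content and exon length in each library, the log2 fold change of Kcnq1ot1 was -0.75, and the median of the 10 stayed between -1.35 and -1.16 over this and 7 other changes to the processing.

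In the other mutant genotypes the members differed less from wild type. In Hoxa-/- Hoxc+/- against wild type, the median log2 fold change of the members was -0.40 (all genes 0.03), with 8 of 10 below 0. Kcnq1ot1 and Luc7l3 stood at 0.06 and 0.04, and without library 20 at -0.17 and -0.18, so that all 10 were then below 0. Other changes to the processing moved these 2 to between -0.06 and 0.22. Ogt was at -0.16 with library 20 and -0.01 without it. Malat1, Clk1, Clk4 and Ccnl2 did not overlap wild type, as did not 8.34% of all genes (4.77% lower). No gene of 15789 passed the threshold there by edgeR's quasi-likelihood test (0%), while 360 (2.28%) had an unadjusted p under 0.05 and DESeq2 called 18. Without library 20 edgeR called 8 genes, none of them a member, and the members' median was -0.53. In Hoxa+/- Hoxc-/- against wild type the median of the members was 0.04 (all genes 0.01), no member passed the threshold, and none lay wholly outside wild type. Over all genes there, 2.36% passed (1.53% lower and 0.836% higher), 21.1% had an unadjusted p under 0.05, and 26.7% did not overlap (15.3% lower).

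Set directly against Hoxa-/- Hoxc+/-, double homozygous mutants had lower values for the 9 members tested, with a median log2 fold change of -0.88 and a range from -1.73 for Neat1 to -0.45 for Ogt. Miat did not pass the low-count filter here. None of the 9 overlapped between groups (23.0% of all genes, 13.1% lower). No gene passed the threshold by edgeR (0%), whereas 1787 of 15764 (11.3%) had an unadjusted p under 0.05 and DESeq2 called 489. Leaving out library 20 gave 687 calls over all genes, 7 of them members, and a members' median of -0.67. Because the members were chosen on these libraries, nothing is read from their count. The 4 comparisons share libraries, so their values are set side by side only.

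**Figure D2:**
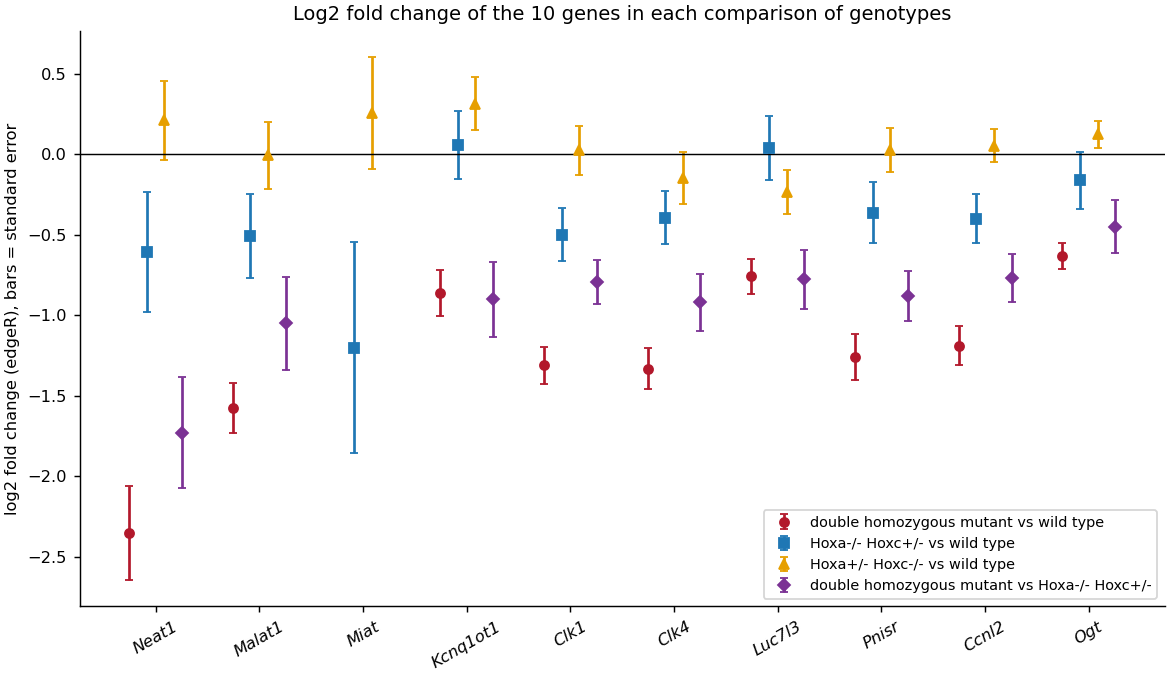
Log2 fold change of each gene in 4 comparisons from edgeR fits, with the standard error as bars (3 libraries per group). Miat is not drawn for double homozygous mutants against wild type, where the other 9 range from -2.35 to -0.63, and Hoxa+/- Hoxc-/- kidneys lie near 0 with a median of 0.04.

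The wild type libraries are all male, so sex was looked at within the mutants. In double homozygous 24, the male, all 10 members lay below the lowest wild type library, as did 34.4% of the 16260 genes kept over the 12 libraries, and nothing is read from the members' count. The wild type mean was 1.51-fold (Ogt) to 5.85-fold (Neat1) the level in that library, Miat aside. In a fit of all 12 libraries with log2 CPM of Xist as a covariate, the log2 fold changes of Malat1, Kcnq1ot1, Clk4 and Luc7l3 were -1.33, -0.70, -1.15 and -0.60. All 4 stayed below 0. In that fit 8 of the 10 members and 1009 genes in all passed the threshold, and nothing is read from the members' count. Xist is itself a nuclear RNA, which coats the inactive X chromosome: it measured 72.6 and 60.1 CPM in the 2 female double homozygous libraries and 190, 253 and 336 CPM in the 3 other female libraries. Those 5 libraries span 3 genotypes, and the difference was not tested.

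Levels of the members varied together over the libraries. Over 12 libraries the 45 pairs of members had a median Pearson r of 0.853 in log2 CPM (0.489 to 0.987), where the genotype difference that defined the list is included. In deviations from genotype means, the median was 0.656 and 35 of 45 pairs were positive, while the median over all pairs of genes was near 0. Ogt was the exception, with 9 negative pairs (median -0.30), and without library 20 of Hoxa-/- Hoxc+/- its pairs had a median of 0.676. These correlations share libraries and depth and are given as a description. Library 20 had the highest level in its group for 9 of the 10 members, all but Ogt.

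Genes outside the list followed the same course. The 10 whose log2 CPM was most like the mean of the members' standardized levels over 12 libraries were Ttc14, Hoxd3, Akap8, Rgs11, Lime1, Gabbr1, 2810403A07Rik, Mrgbp, Rrnad1 and Wsb1, with r between 0.977 and 0.989, and 215 genes in all had r above 0.9. All 10 carry between 1 and 8 annotated retained-intron transcripts, and 53.3% of the annotated genes tested carry at least 1. Ttc14 went from 32.8 ± 3.38 CPM in wild type to 16.2 ± 0.479 CPM in double homozygous mutants (SD, n = 3). Hoxd3, a Hox gene outside the targeted clusters, went from 18.8 ± 3.38 to 5.92 ± 0.449 CPM, and Wsb1, a ubiquitin ligase subunit, from 159 ± 24.7 to 63.7 ± 5.94 CPM. As these genes were chosen by their pattern, their differences are not tested.

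Proteins of nuclear speckles were compared next, from lists drawn up with earlier results of these data known. Of 26 genes for speckle proteins rich in arginine and serine, 20 fell in double homozygous mutants against wild type, none rose, and all 26 had a negative estimate (median log2 fold change -0.55). Here and below, genes are called by edgeR's quasi-likelihood test at a Benjamini-Hochberg adjusted p under 0.05, and the share of all tested genes that fell was 7.40%. Ccnl1, the paralog of Ccnl2, fell from 51.2 ± 4.38 to 17.1 ± 0.920 CPM (log2 fold change -1.58, SE 0.09, adjusted p = 0.00041). Nktr, a cyclophilin with a long RS domain, fell from 67.9 ± 5.67 to 36.5 ± 3.03 CPM (-0.90, SE 0.09, adjusted p = 0.0028). Rsrc2 fell from 91.4 ± 3.99 to 59.5 ± 2.57 CPM (-0.62, SE 0.07, adjusted p = 0.00337). Relatives of Luc7l3 differed in call: Luc7l fell by 0.64 (adjusted p = 0.00698), and Luc7l2 had a log2 fold change of -0.26 (SE 0.09, adjusted p = 0.0895).

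Of 13 SR proteins, the splicing factors that CLK kinases phosphorylate, 6 fell and none rose (median -0.42), and the number that fell ran from 2 to 7 over alternatives and 3 to 7 with 1 library left out. Srsf4 led, from 108 ± 12.1 to 49.9 ± 1.73 CPM (log2 fold change -1.12, SE 0.09, adjusted p = 0.00132). Srsf11, Tra2a, Srsf5, Srsf10 and Srsf6 fell by 0.62, 0.56, 0.47, 0.45 and 0.42 on the log2 scale. The abundant Srsf1, Srsf2 and Srsf3 did not pass, with estimates of -0.33, -0.40 and -0.39. Of 8 other splicing kinases 3 fell (1 to 4 over alternatives, 1 to 5 with 1 library left out), Clk2 by 0.47 (adjusted p = 0.0131), Srpk1 by 0.44 (adjusted p = 0.00832) and Prpf4b by 0.42 (adjusted p = 0.0311). Clk3 had an estimate of -0.23 (SE 0.09, adjusted p = 0.123), and Dyrk1a and Dyrk1b lay at 0.02 and 0.05.

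Paraspeckle proteins, which bind Neat1, fell in 7 of 23 cases with none rising (median -0.30). That count is unstable: it ran from 1, with Xist as a covariate, to 12, by DESeq2, and was 2 without wild type 37 and 10 without wild type 30. Pspc1 fell from 55.4 ± 3.88 to 36.7 ± 1.96 CPM (adjusted p = 0.00668), Taf15 from 76.6 ± 3.42 to 54.0 ± 2.57 CPM (adjusted p = 0.00695) and Ewsr1 from 329 ± 30.7 to 213 ± 20.7 CPM (adjusted p = 0.0106). Nono and Sfpq, without which paraspeckles do not form, did not pass, with log2 fold changes of -0.12 and -0.42. Of 34 core spliceosome genes 2 fell (0 to 6 over alternatives, 0 to 8 with 1 library left out), a share near that of all genes, Prpf3 by 0.59 (adjusted p = 0.0104) and Sf3b1 by 0.39 (adjusted p = 0.0294). The median was -0.21.

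**Figure D3:**
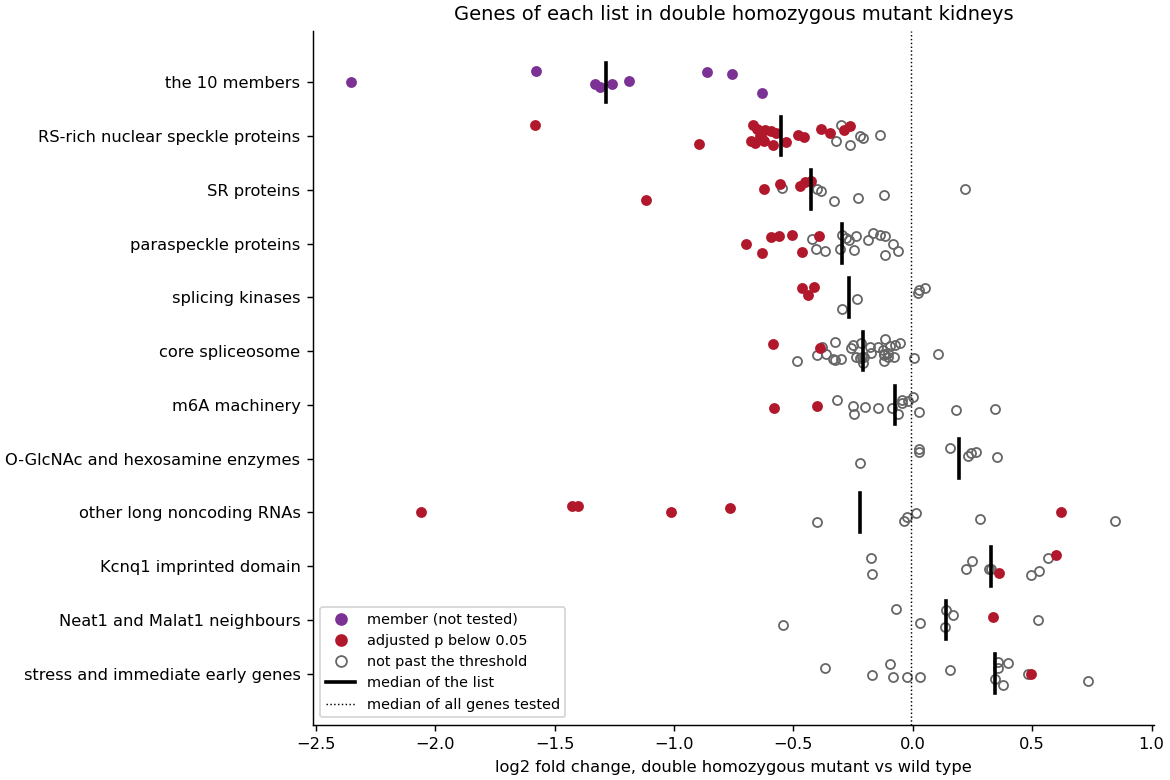
Log2 fold change in double homozygous mutants against wild type for the tested genes of 12 lists, 1 point per gene; filled red points passed an adjusted p of 0.05 and vertical bars are list medians (Miat counts in the median of the members but is not drawn). Medians run from -1.28 for the 10 members through -0.55 for RS-rich speckle proteins to 0.34 for stress genes, and the dotted line is the median of all genes (-0.01).

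None of 8 other O-GlcNAc and hexosamine enzymes passed the threshold, and the median was 0.19. Over alternatives 0 to 2 rose and 0 to 1 fell. Mgea5, which removes the sugar that Ogt adds, was at 141 ± 6.75 CPM in wild type and 121 ± 1.94 CPM in double homozygous mutants (log2 fold change -0.22, SE 0.07, adjusted p = 0.0637), lower in every library, and passed in 1 of 8 alternatives, scaling by library size alone (adjusted p = 0.0302). Gfpt1, which commits sugar to the pathway, had an estimate of 0.35 (adjusted p = 0.0603). Among 16 genes of m6A methylation, which marks many nuclear RNAs, the readers Ythdc1 (log2 fold change -0.58, adjusted p = 0.00385) and Ythdc2 (-0.40, adjusted p = 0.0459) fell. Ythdc1 passed in 8 of 8 alternatives and 6 of 6 fits with 1 library left out, but Ythdc2 in only 4 and 0.

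Other long noncoding RNAs went both ways. Of 12 tested, Pvt1, Mir17hg, Nespos, Ftx and Meg3 fell and Rian rose. The number that fell ran from 2 to 5 over alternatives and from 1 to 5 with 1 library left out. The number that rose ran from 0 to 3 and from 0 to 2. Pvt1 fell from 3.02 ± 0.288 to 1.14 ± 0.231 CPM (adjusted p = 0.0102), and Mir17hg, the host of the miR-17 cluster, from 3.08 ± 1.48 to 0.738 ± 0.0663 CPM (adjusted p = 0.0136). Rian and Meg3 come from 1 imprinted domain. Rian rose from 28.9 ± 1.52 to 44.5 ± 7.86 CPM (adjusted p = 0.0253) while Meg3 fell from 8.75 ± 1.4995 to 5.15 ± 0.946 CPM (adjusted p = 0.0383). Tug1, another mainly nuclear RNA, was at 202 and 246 CPM (log2 fold change 0.28, adjusted p = 0.0805).

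Genes beside the noncoding members were compared too. In the Kcnq1 domain, 2 of 11 tested genes rose, Osbpl5 by 0.36 (adjusted p = 0.0249) and Cdkn1c, the growth inhibitor that Kcnq1ot1 silences on the paternal chromosome, from 707 ± 124 to 1073 ± 63.7 CPM (log2 fold change 0.60, SE 0.13, adjusted p = 0.0282). None fell, and the median of the domain was 0.33. Of 8 tested neighbours of Neat1 and Malat1, none fell and Ltbp3 rose by 0.34 (adjusted p = 0.0428). Calls were also made with each of the 6 libraries left out in turn. Ccnl1, Nktr, Rsrc2, Luc7l, Srsf4, Srsf5, Srsf11, Srpk1, Pspc1, Taf15, Ythdc1 and Pvt1 passed in all 6 fits. Of these 12, the fit of all 12 libraries with Xist as a covariate ended the calls of Srpk1 (adjusted p = 0.0635), Srsf5 (adjusted p = 0.0972) and Taf15 (adjusted p = 0.144), and that without Xist those of Srpk1 (adjusted p = 0.118) and Taf15 (adjusted p = 0.056). Ewsr1 and Prpf3 lost the call without wild type 37 (adjusted p = 0.0567 and 0.0535), and Mir17hg without double homozygous 24 (adjusted p = 0.0509). Ewsr1 and Prpf3 also failed in the fit of all 12 libraries (adjusted p = 0.0826 and 0.112) and in that with Xist (adjusted p = 0.202 and 0.277). Clk2 and Zranb2 passed in 3 fits, Srsf10, Sf3b1, Rian, Meg3, Osbpl5 and Hspb1 in 2, Cdkn1c, Prpf4b and Nespos in 1, and Ythdc2 and Ltbp3 in 0. The fit with Xist ended the calls of each of these but Clk2, and that of all 12 libraries without Xist those of each but Clk2, Meg3 and Sf3b1. Wild type 37 and 55 were among the libraries without which each of these 13 was lost, and over all genes edgeR called 535 without wild type 37, 633 without 55, 793 without double homozygous 24, 1101 without 27 and 3386 without wild type 30.

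Stress and handling genes were read as a check on RNA quality. Of 15 heat shock and immediate early genes, Hspb1 rose from 24.4 ± 2.55 to 34.4 ± 2.09 CPM (adjusted p = 0.0233), no other passed, and the median was 0.34. Rmrp and Rpph1, RNAs without a poly(A) tail, had estimates of -1.15 (adjusted p = 0.108) and -0.82 (adjusted p = 0.402). Among 12 markers of liver, muscle, adrenal cortex, blood and macrophages, Alb, C1qa and C1qb rose in double homozygous mutants. Their summed level was 1182 to 1590 CPM there and 568 to 1389 CPM in wild type, nearly all of it globin, while Ckm and Apoa2 stayed under 1 CPM in both. Cyp11a1 of the adrenal cortex was at 0.346 to 0.553 CPM in wild type and 0.784 to 1.87 CPM in double homozygous mutants, without overlap (log2 fold change 1.42, adjusted p = 0.0703). Star, also of the adrenal cortex, averaged 3.77 and 3.40 CPM and overlapped (log2 fold change -0.15, adjusted p = 0.672). Muscle Acta1 averaged 0.796 and 2.59 CPM (log2 fold change 1.70, adjusted p = 0.166). Foxd1, a stromal factor of the kidney, rose from 24.3 to 38.4 CPM (adjusted p = 0.0102). The part of cell makeup in the members' levels was not tested.

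In Hoxa+/- Hoxc-/- against wild type, 7 genes of these lists were called. SR proteins had 12 of 13 estimates below 0 and 9 of 13 genes lower in every library (15.3% of all genes tested), with a median of -0.29. Srsf10 fell by 0.47 (adjusted p = 0.0473), Srsf3 by 0.43 (adjusted p = 0.0485), Zranb2, a speckle zinc finger protein, by 0.45 (adjusted p = 0.0196), Gnpnat1 by 0.41 (adjusted p = 0.0345) and Ythdf3 by 0.41 (adjusted p = 0.0282). Meg3 rose from 8.75 ± 1.4995 to 22.2 ± 2.99 CPM (adjusted p = 0.00933), the opposite of its direction in double homozygous mutants, and Hspa8 rose by 0.37 (adjusted p = 0.0432). Meg3 lost the call without wild type 37 (adjusted p = 0.0623), and the other 6 passed in only 1 or 2 of the 6 fits that leave out a library, failing without wild type 37, wild type 55, AhCk_110 and AhCk_115 alike. Over the 8 alternatives Meg3 passed in 8, Zranb2, Gnpnat1, Ythdf3 and Hspa8 in 4, Srsf10 in 3 and Srsf3 in 2. With offsets for GC content and exon length Gnpnat1 was at -0.20 (adjusted p = 0.313) and Ythdf3 at -0.21 (adjusted p = 0.202). Run and genotype cannot be told apart in these values. No gene of the lists was called in Hoxa-/- Hoxc+/- kidneys.

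Retained-intron annotation was then compared over all genes, a division chosen after the values were seen and with the 10 members left out. In double homozygous mutants against wild type, 5.05% of 7320 tested genes with no retained-intron transcript fell. The share was 6.80% of 5396 genes with 1 to 2 such transcripts, 11.0% of 1990 with 3 to 4 and 19.7% of 985 with 5 or more. The share that rose ran the other way, from 7.27% to 3.25%. Without wild type 37 the shares that fell were 1.12% with none and 6.20% with 5 or more. They were 6.55% and 21.3% without wild type 30. Genes with 5 or more annotated transcripts of which none is a retained intron fell in 7.81% of 1856 cases. Among genes above the median mean level the first and last classes stood at 6.30% and 18.7%, and genes there with 5 or more transcripts and no retained intron fell in 10.0% of 968 cases. In Hoxa+/- Hoxc-/- against wild type the shares that fell were 1.81% with none and 0.508% with 5 or more.

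**Figure D4:**
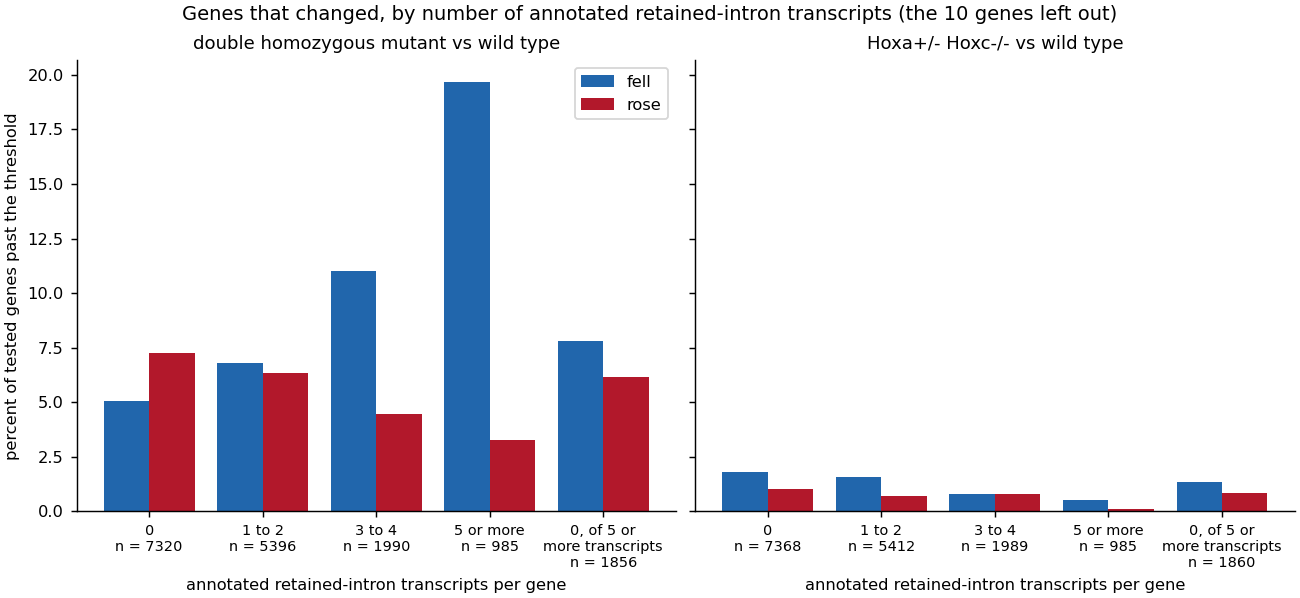
Percent of tested genes that fell (blue) or rose (red) past an adjusted p of 0.05, by the number of retained-intron transcripts annotated for the gene, without the 10 members. In double homozygous mutants the share that fell is 5.05% with none and 19.7% with 5 or more, and in Hoxa+/- Hoxc-/- kidneys no class exceeds 1.81%.

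Small nucleolar RNAs are cut from introns of their host transcripts. Summed over 128 snoRNA genes (host transcripts not included), double homozygous libraries held 3.77 to 4.57 CPM and the other 9 libraries 7.26 to 13.4 CPM, without overlap. Of 10 snoRNA genes tested against wild type, 4 passed the threshold, all lower, but 3 of them had double homozygous means of 0.0442 to 0.0699 CPM, under the floor of 3 counts, and passed the low-count filter only through wild type. Snora65, the one left, fell from a mean of 1.07 to 0.369 CPM (adjusted p = 0.0231). Snord42a and Snord87 had log2 fold changes of 0.14 and -0.05 and did not pass. These 3 were named after their values were seen. Since snoRNA genes lie inside introns, reads of an unspliced host transcript may be counted with them, and whether RNA was selected by its poly(A) tail is not given in the sources used here.

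**Figure D5:**
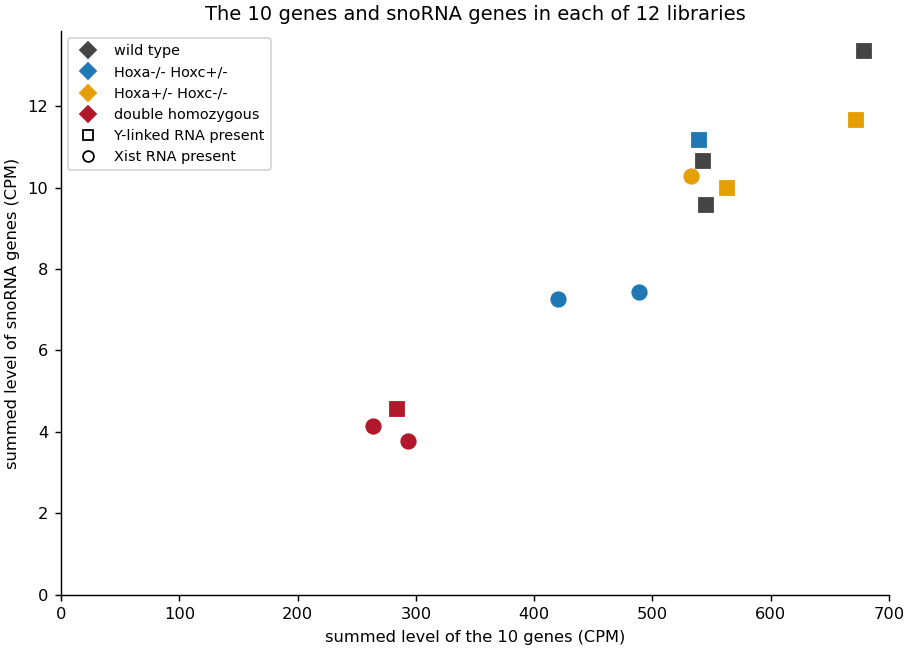
Summed level of the 10 genes (x axis, CPM) and of 128 snoRNA genes (y axis, CPM) in each of 12 libraries, with colour for genotype and shape for the presence of Y-linked or Xist RNA. The double homozygous libraries sit at the lower left, at 264 to 293 CPM for the 10 genes and 3.77 to 4.57 CPM for snoRNAs.

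Some library traits also differed between genotypes. Double homozygous libraries held 3.70e+07 to 4.02e+07 counts and wild type libraries 3.72e+07 to 4.24e+07. The slope of log2 level on GC content ran from -0.05 to 0.04 per 10 percentage points in double homozygous libraries and from -0.09 to -0.01 in wild type. All 3 Hoxa+/- Hoxc-/- libraries, from the other run, had slopes of 0.06 to 0.11, above every other library. On exon length it was -0.02 to -0.01 per doubling in double homozygous libraries, -0.04 to 0.04 in wild type and -0.21 in Hoxa-/- Hoxc+/- 20. Rmrp was at 0.74 to 1.59 CPM in double homozygous mutants and 1.99 to 4.58 CPM in wild type, without overlap. Noncoding RNA without the members, Xist, Meg3, Rian and H19 summed to 3027 to 3176 CPM in double homozygous mutants. It summed to 3205 to 3411 CPM in wild type, also without overlap. Low values of both were not confined to double homozygous libraries. The same sum was 2989 to 3181 CPM in Hoxa+/- Hoxc-/- and 3153 to 4003 CPM in Hoxa-/- Hoxc+/- libraries. Rmrp was at 0.839 to 1.88 CPM in the former and 1.45 to 4.44 CPM in the latter. The part of these traits in the members' levels was not tested. The share of nuclear RNA that each extraction yielded was not tested.

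Promoter sequence, 250 bases before to 50 after the start, was available for 7 of the 10 members (RefSeq, GRCm38.p6). All 7 hold more CpG than the median promoter (9 to 33 against 7). Of 7 motifs searched on both strands, GGGCGG occurred in 5 of the 7 promoters (35.9% of 27025 promoters), CCAAT in 2 (37.9%) and CCGGAAG in 1 (9.12%), while CACGTG (7.24%) and TATAAA (14.2%) were in none. TTTATNG, the type bound by posterior Hox proteins such as the targeted ones, was found in Malat1 and Kcnq1ot1 (11.3% of all promoters). TGACGTCA, the cyclic AMP response element, was found in Clk4 alone (1.88%). The 250 bases upstream are shown for Clk4 (chr11:51262864-51263113, plus strand) and Malat1 (chr19:5802673-5802922, minus strand), with the matched letters in capitals, which in Malat1 lie on the opposite strand. For Clk4 the RefSeq start, and so this stretch, lies inside the span given above for the gene (chr11:51261730-51281766). A match is a description of letters and not of binding.
Clk4 upstream: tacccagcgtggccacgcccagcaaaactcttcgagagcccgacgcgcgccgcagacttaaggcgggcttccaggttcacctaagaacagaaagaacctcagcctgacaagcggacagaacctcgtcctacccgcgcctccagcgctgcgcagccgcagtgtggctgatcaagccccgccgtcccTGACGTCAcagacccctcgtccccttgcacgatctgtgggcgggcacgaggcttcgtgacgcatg
Malat1 upstream: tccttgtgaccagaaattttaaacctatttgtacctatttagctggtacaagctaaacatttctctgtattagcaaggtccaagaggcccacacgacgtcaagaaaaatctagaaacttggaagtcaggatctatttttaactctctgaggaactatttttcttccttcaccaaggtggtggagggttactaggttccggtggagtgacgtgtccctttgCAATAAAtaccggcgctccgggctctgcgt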

How the data were processed

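The authors made TruSeq libraries from whole E18.5 kidneys (3 for each of 4 genotypes), read 75 bases from both ends, and quantified genes with Strand NGS on mm10, dropping reads with more than 1 alignment position. The deposited expected counts per gene are not normalized, and 41.0% of values carry a fraction. A log2 table normalized by the authors served only as an alternative, with limma 3.58.1. The authors' own Audic-Claverie test has no term for the spread between replicates and was not used.

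After rounding, each comparison was fitted on its own 6 libraries by quasi-likelihood in edgeR 4.0.16 (R 4.3.3), with TMM factors, filterByExpr (minimum count 10, minimum total 15) and Benjamini-Hochberg adjusted p under 0.05. CPM used TMM factors over all 12 libraries, and log2 CPM a prior count of 0.5. Where a symbol had several rows (92 symbols), the row with the most reads kept it. These fits were first tried on simulated counts. Other settings were DESeq2 1.42.0, scaling by RLE or by library size alone, all genes with at least 1 count, all 12 libraries in the fit, these with Xist as a covariate, limma, offsets from 20 bins of GC and of exon length, and leaving out each library in turn. Exon lengths, GC content and transcript classes came from GENCODE release 21 and promoters from RefSeq GRCm38.p6.

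Members and gene lists were chosen with earlier results of these data known. The division by retained-intron transcripts, its restriction to genes above the median level and the snoRNA class were added after the data were seen. Named genes are the 10 members, from each list up to 3 genes per direction and comparison by lowest adjusted p among those past the threshold, the relatives Clk2, Clk3, Ccnl1, Luc7l, Luc7l2 and Mgea5, and the 10 genes most like the members, and others named beside them were chosen after their values were seen.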

Additional observations from a re-analysis of the deposited data

How the results depend on the processing

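The median log2 fold change of the 10 members in double homozygous mutants against wild type lay between -1.35 and -1.16 over 8 alternatives and between -1.37 and -1.13 with 1 library left out, and no member changed direction. Counts of all genes called moved more. For double homozygous mutants against wild type, edgeR called 2171 genes, all 12 libraries in the fit 1190, these with Xist as a covariate 1009, DESeq2 3312 and limma 1215, and leaving out 1 library gave 535 to 3386. For Hoxa+/- Hoxc-/- against wild type the count was 376, and 149, 134, 1284 and 158 in the same order, 125 with offsets for GC and exon length, and 60 to 549 with 1 library left out. For Hoxa-/- Hoxc+/- against wild type it was 0, with 2 for all 12 libraries, 18 for DESeq2, 1 for limma and 0 to 8 with 1 library left out. For double homozygous mutants against Hoxa-/- Hoxc+/- it was 0, with 540 for all 12 libraries, 651 with Xist, 489 for DESeq2, 1 for limma, 1 without the low-count filter, 2 with these offsets, and 0 to 687 with 1 library left out. The cause was not tested. The members' median in that comparison was -0.88, and -0.96 to -0.67 with 1 library left out, the last without library 20. RS-rich speckle genes that fell numbered 15 to 23 over all alternatives. The share that fell among genes with 5 or more retained-intron transcripts ran from 6.20% to 25.4%. It was 3.26 to 5.56 times that of genes with none over 8 alternatives and 6 fits with 1 library left out. Among genes above the median level it was 2.97 times that of genes with none. Against genes there with 5 or more transcripts and no retained intron, it was 1.87 times. No paired analysis was possible because no replicate number is shared between groups. At 3 libraries per group and 2.86e+07 to 4.71e+07 counts, low genes such as Miat are limited by depth.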
